A study of Mus musculus with 48 samples.

Results

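The clustered protocadherin locus was taken as the stretch of mouse chromosome 18 from position 37090001 to 38010000 (build mm9), a window of 920 kb that holds the protocadherin alpha, beta and gamma clusters (Pcdha, Pcdhb and Pcdhg). Its members were all peaks of H3K27ac, acetylation of histone H3 at lysine 27, that overlapped the window by at least 1 bp, so peaks were taken by position alone. There were 162 such peaks among the 620207 peaks of the 24 H3K27ac lists in the series. The comparisons used 21 lists, 1 per tissue and stage, in which the window held 141 peaks. Forebrain lists held 52 of these, heart lists 53 and liver lists 36.

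The mark was mapped by ChIP-seq (immunoprecipitation of cross-linked chromatin, then sequencing) in the forebrain, the heart and the liver. Donors were CD-1 mice, an outbred strain, with no mutation or treatment named in the labels. Each tissue was taken at 3 embryonic stages (E11.5, E14.5, E17.5) and 4 postnatal stages (P0, P7, P21, P56). Tissue of several animals was pooled at all stages but P56, and each immunoprecipitated library was accompanied by an input library of sheared DNA. Replicates existed for 3 of the 21 groups, namely heart E11.5, forebrain P56 and forebrain E11.5, with 2 H3K27ac libraries each, and the other 18 groups had 1. The labels do not say whether the replicates came from separate animals or pools, so their spread may be technical. The tissues were whole, so a mark carried by few cells and a weaker mark in many cells cannot be told apart.

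Protocadherins are cadherin-type adhesion proteins of the cell surface, best known in neurons. In mammals the 3 clusters lie in a row. In the alpha and gamma clusters each variable exon has a promoter of its own and is spliced to constant exons shared by the cluster, whereas the beta genes are single-exon genes. A neuron uses a small and largely random choice of these promoters, which gives it a surface identity used in self-recognition of its branches, and the choice depends on distant enhancers and on looping by CTCF and cohesin. H3K27ac marks active enhancers and promoters, so a peak list records where such marks passed the authors' threshold. In RefSeq (assembly GRCm38.p6) the row holds 14 Pcdha genes, then 22 Pcdhb genes, then 22 Pcdhg genes, of which 1 is a pseudogene. Slc25a2, a mitochondrial carrier gene, and Taf7, a gene for a subunit of the general transcription factor TFIID, lie between the beta and gamma clusters. Hars2 and Zmat2 come before the row, and Diaph1 and Hdac3 after it. That assembly differs from the build of the peak lists, so peaks are named here by position and were not assigned to genes.

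The libraries differed in depth and in list length. The H3K27ac libraries held between 4108135 and 33394166 uniquely mapped reads, and their lists between 7376 and 39133 peaks. In forebrain the median was 25627322 reads, against 11439284 in heart and 10736658 in liver. Library names in the list headers form 2 series, 11 lists whose names begin with IO (all of forebrain except the second P56 replicate, together with both heart E11.5 lists and heart P56) and 13 whose names begin with LPAN (all the others, all of liver among them). Tissue and name series therefore largely coincide and can be compared within a series at few stages. The shortest list was heart P21, and the input list of that group went against its label: it held 23762 peaks, whereas the other 23 input lists held between 17 and 865. Of the peaks labelled heart P21 input, 92.0% overlapped liver P7 peaks of H3K27ac and 69.4% overlapped heart P7 peaks. Of the peaks in the list labelled heart P21 H3K27ac, 34.8% overlapped liver P7 peaks and 88.9% heart P7 peaks. The main comparisons that use heart P21 were repeated without it, with the lists at full length and the window as set. Those at equal list lengths, relative to list coverage or with shifted window edges are given with heart P21 included.

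Most of the locus carried no peak in any tissue at any stage. The peaks of all 24 lists together covered 61342 bp, 6.67% of the window, and merged into 11 separate elements. An equally long stretch directly upstream (36170001 to 37090000) was covered to 24.2% in 48 elements, and one directly downstream (38010001 to 38930000) to 47.0% in 70 elements. The window had fewer covered base pairs than the upstream stretch in 23 of 24 lists and fewer than the downstream stretch in 24 of 24. The longest run without a peak in any list was 423.7 kb, from 37378569 to 37802254. A run of 211.2 kb at the start of the window, from 37090001 to 37301187, was also without a peak in any list, and 2 shorter ones of 57.3 kb and 90.0 kb lay further along. Of 3 equal segments of the window, each 306.7 kb long, the middle one was therefore at 0 bp in every list. Absence of a peak means that no signal passed the authors' threshold at that depth. Reads that map to several near-identical genes can be lost before peaks are called, and how such reads were treated is not given in the sources used here.

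**Figure D1:**
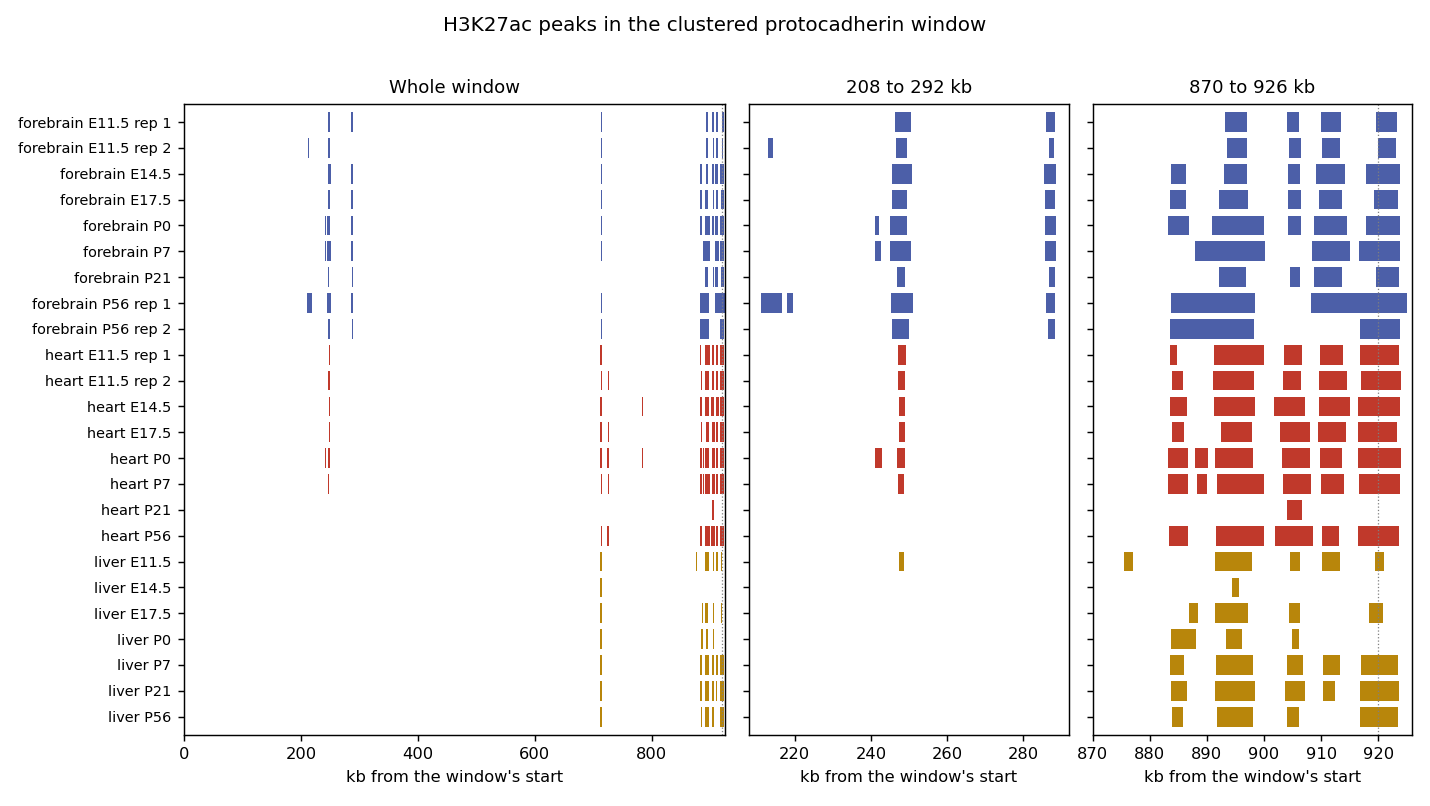
Each row is 1 of the 24 H3K27ac lists and each bar is a peak, drawn to scale in kb from the start of the window (0) to just past its end (920 kb, dotted line), with 2 enlarged stretches at the right. Blue rows are forebrain, red rows heart and gold rows liver. The bars stand in 3 groups, from 211 kb, from 712 kb and from 875 kb on, and the column at 285 kb is filled in forebrain rows only.

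Elements are called by the distance of their start from the start of the window. Of the 11 elements, 3 were marked in forebrain lists only, 1 in heart lists only and 1 in liver lists only. Over the genome these shares were 24.1%, 18.7% and 15% of elements. A further 4 of 11 were marked in all 3 tissues (21.8% over the genome) and 4 of 11 at all 7 forebrain stages (10.2% over the genome). The first group consists of 5 elements between 211 and 289 kb, and it is the stretch in which forebrain stood apart. The 285-kb element (37375469 to 37378568, 3100 bp) had a peak in 9 of 9 forebrain lists, 0 of 8 heart lists and 0 of 7 liver lists. Its covered length in forebrain was 2464 bp at E11.5, 3100 bp at E14.5, 2638 bp at E17.5, 2835 bp at P0, 2953 bp at P7, 1619 bp at P21 and 2565 bp at P56, and 1284 bp and 1745 bp in the second replicates of E11.5 and P56. All forebrain lists are thus above all heart and liver lists, which are at 0 bp. Over the 21 lists, 7 of 7 forebrain lists against 0 of 14 others gave a one-sided Fisher's exact p of 8.6e-06, with a Benjamini-Hochberg adjusted p of 0.00107 over the 48237 elements of the genome that had a forebrain peak. This was 1 element called of 8 elements of the window with a forebrain peak, whereas 6.53% of all tested elements of the genome were called. Adjusted over all 85254 elements marked in the 21 lists, whether or not forebrain had a peak, the Fisher's exact p was 0.0019. With stage as a stratum the exact adjusted p was 0.0489 over elements with a forebrain peak, of which 2.81% were called. Over all 85254 elements it was 0.0864, and 0 elements of the genome were called. The stratified exact p of this element before adjustment, 0.000457, is the smallest that this test allows. Loss of the call over all elements was therefore not particular to this element. Elements marked at all 7 forebrain stages and in no heart or liver list made up 0.453% of all elements and were 1 of 11 in the window, the 285-kb element. At E11.5 and P56 forebrain and heart lists come from the same name series, IO, except replicate 2 of forebrain P56, which is of the LPAN series. Among those IO lists the element also had a peak in each forebrain list and in none of the heart lists.

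The position of the 285-kb peak in its own list varied with stage. The authors ranked the peaks of each list, and ranks are given here as percentiles within a list, with 100 for the best peak. The percentile was 41.7 at E11.5, 84.9 at E14.5, 94.5 at E17.5, 97.2 at P0, 94.9 at P7, 64.0 at P21 and 79.5 at P56. In the second replicates it was 31.7 at E11.5 and 72.9 at P56. The values at E17.5, P0 and P7 were the highest and the 2 at E11.5 the lowest. At E17.5 and at P0 it was the best-ranked peak of the whole window. Ranks of lists of different length do not measure a change in signal, and no test was made of them.

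The 245-kb element (37335059 to 37340965), about 40 kb before, was shared between tissues. It had a peak in 7 of 7 forebrain lists, 5 of 7 heart lists and 1 of 7 liver lists. Where present it covered 1946 bp to 5700 bp in forebrain, with a median of 4533 bp over the 7 lists. In heart it covered 1517 bp to 2055 bp at E11.5 to P7 and was at 0 bp at P21 and P56, and in liver it covered 1180 bp at E11.5. Every forebrain list except P21 (1946 bp) was above every heart and liver list. Presence of a peak there in forebrain against the others did not pass (one-sided Fisher's exact p = 0.0148, adjusted p = 0.129). It passed where peaks had to cover 50% of the element (6 of 7 forebrain lists and no other list, exact adjusted p = 0.00736) and where every list was shortened to its 7376 best peaks (5 of 7 forebrain lists and no other list, exact adjusted p = 0.0133). Both values were adjusted over elements marked in forebrain only, and genome shares for these settings are not given here. Forebrain peaks of P0 and P56 set the element's edges, and every heart and liver peak there was too narrow to cover 50%. The 50% rule thus followed peak width as well as presence. Its rank percentile lay between 45.8 and 91.4 in forebrain, and in heart between 19.7 and 67.3.

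The other 3 elements of the first group were seldom marked. The 241-kb element (37331040 to 37332866) had peaks at forebrain P0, forebrain P7 and heart P0. The 211-kb element (37301188 to 37306667) was marked in 2 forebrain lists, with 5480 bp in replicate 1 of P56 and 1376 bp in replicate 2 of E11.5, and the 218-kb element (37307866 to 37309492) in replicate 1 of P56 alone. Neither was marked in the other replicate of the same group.

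The second group lies beyond the long empty stretch. The 712-kb element (37802255 to 37805173) had a peak in 6 of 7 forebrain lists, 6 of 7 heart lists and 7 of 7 liver lists, and the lists without it were forebrain P21 and heart P21. Its covered length was narrow in range, 1653 bp to 2230 bp in the forebrain lists that had it, 2202 bp to 2836 bp in the heart lists and 2228 bp to 2714 bp in the liver lists. Its place in the window's order of ranks differed by tissue. It was the best-ranked peak of the window in 0 of 9 forebrain lists, 3 of 8 heart lists and 7 of 7 liver lists. Its percentile in forebrain was 14.4 at E11.5, 51.5 at E14.5, 27.3 at E17.5, 66.8 at P0, 79.6 at P7 and 70.9 at P56, and 26.9 and 81.2 in the second replicates of E11.5 and P56. In heart it lay between 82.6 and 97.1, and in liver between 53.1 and 96.2, so the forebrain lists that had the peak are all below the heart lists that had it and overlap those of liver. At E11.5, E14.5 and E17.5 it was the lowest or next to lowest ranked of the 7 or 8 forebrain peaks in the window.

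The 725-kb element (37814578 to 37816530) was marked mainly in heart. It had a peak in 0 of 7 forebrain lists, 6 of 7 heart lists and 1 of 7 liver lists. Its covered length in heart was 1241 bp at E11.5, with 1639 bp in the second replicate, 1475 bp at E14.5, 1708 bp at E17.5, 1823 bp at P0, 1851 bp at P7, 0 bp at P21 and 1953 bp at P56. The liver peak, of 1271 bp, was at P56, with a rank percentile of 6.2, whereas the heart peaks had percentiles between 33.3 and 64.3. For heart against the other tissues the one-sided Fisher's exact p was 0.000851 and the adjusted p 0.0170, in a test chosen after the data were seen. This was 1 element called of 7 elements of the window with a heart peak, and 7.16% of the genome's tested elements were called. Over all 85254 elements the adjusted Fisher's exact p was 0.0291. Without heart P21 it was 0.00657 over elements with a heart peak. With stage as a stratum the call was lost, with an exact adjusted p of 0.0674 with heart P21 and 0.0822 without it, and 2.79% of the genome's elements were called with it. The 784-kb element (37873823 to 37875479) was marked at heart E14.5 and heart P0 alone. For liver the same test called 0 of 6 elements of the window, with 3.64% called over the genome. At an unadjusted Fisher's exact p under 0.05 it called 0 of 6, with 15.5% over the genome.

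The third group, at the downstream end of the window, was marked in every tissue and held most of the covered length. An 875-kb element (37965477 to 37967001) had a single peak, at liver E11.5. The 883-kb element (37973110 to 37990177) had peaks in 7 of 7 forebrain, 6 of 7 heart and 7 of 7 liver lists. The 902-kb element (37991722 to 38015029), which crosses the end of the window, had peaks in 7 of 7 forebrain, 7 of 7 heart and 6 of 7 liver lists. These elements are long because wide peaks, foremost those of forebrain P56, join neighbours, so they were divided into 5 blocks covered by peaks in at least 4 lists, a division chosen after the data were seen and given as a description.

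The 891-kb block (37980857 to 37989967) was marked in 23 of 24 lists, heart P21 being the exception. In forebrain its covered length was 3848 bp at E11.5, 3947 bp at E14.5, 5064 bp at E17.5, 9058 bp at P0, 9111 bp at P7, 4855 bp at P21 and 7530 bp at P56. It was 3531 bp and 7332 bp in the second replicates of E11.5 and P56. The prenatal forebrain values are below those of P0, P7 and P56, and P21 lies among the prenatal ones. In heart it covered 5308 bp to 8645 bp apart from P21, and in liver 1144 bp, at E14.5, to 7017 bp, at P21.

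The 883-kb block (37973286 to 37980123) was unmarked at forebrain E11.5, in both replicates, and at forebrain P21. It covered 2207 bp to 3524 bp from E14.5 to P7 and 6449 bp and 6658 bp in the P56 replicates. In heart it covered 1138 bp at E11.5 and 5597 bp at P0, the lowest and highest lists that had it, and it was unmarked at P21. Liver had no peak there at E11.5 or E14.5 and had one at each later stage.

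The 903-kb block (37993072 to 37997995) had a peak in 5 of 7 forebrain lists, 7 of 7 heart lists and 6 of 7 liver lists, and it held the only window peak of heart P21, of 2543 bp. The covered length was 1751 bp to 2395 bp in the forebrain lists that had it, with no peak at P7 or in either replicate of P56, whereas it was 2543 bp to 4924 bp in heart. All 8 heart lists are above all 9 forebrain lists. Liver E14.5 had no peak, and the other liver lists had 1354 bp to 3531 bp.

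The 909-kb block (37998724 to 38004499) had a peak in 7 of 7 forebrain lists, 6 of 7 heart lists and 3 of 7 liver lists, and replicate 2 of forebrain P56 had none. Its rank percentile was 56.4 to 97.1 in forebrain, 58.1 to 95.3 in heart and 1.9 to 39.9 in liver. The best-ranked window peak touched it in 5 of 9 forebrain lists and 3 of 8 heart lists, at forebrain P56 with a wide peak that also covered the 916-kb block. The 916-kb block (38006496 to 38013842) was marked in 7 of 7 forebrain, 6 of 7 heart and 5 of 7 liver lists. In liver it covered 1537 bp at E11.5, 0 bp at E14.5, 2444 bp at E17.5, 0 bp at P0, 6512 bp at P7, 6799 bp at P21 and 6714 bp at P56, so the 3 latest lists stand above the 4 earlier ones. No test was made of single blocks.

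**Figure D2:**
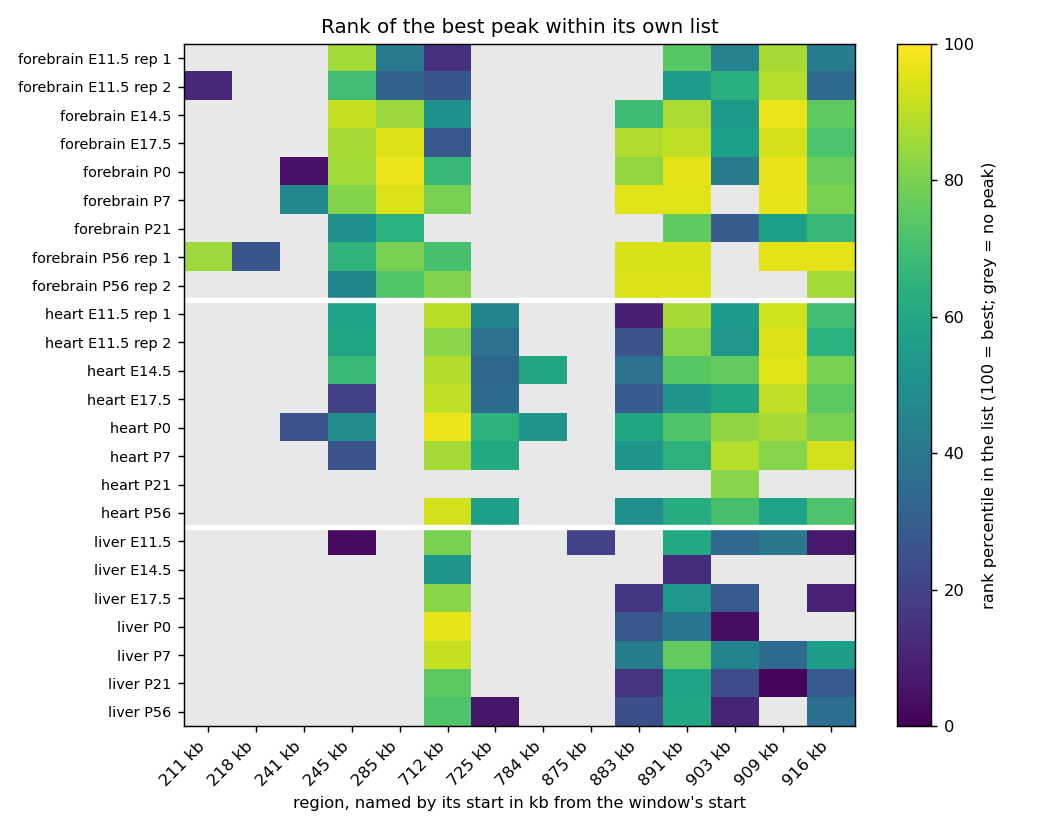
Rows are the 24 H3K27ac lists and columns the elements and blocks by their start in kb from the start of the window, with colour for the rank percentile of the best peak there within its own list (100 is best) and grey for no peak. In forebrain rows the 285-kb column is bright at E17.5 to P7, and the 712-kb cell is the brightest of every liver row.

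Set against each other by position, the first and last of the 3 equal segments differed in all tissues, and forebrain differed from the other tissues in the first segment. The last segment exceeded the first by a mean of 11000 bp in forebrain (19403 against 8402 bp), 22990 bp in heart (24547 against 1556 bp) and 14628 bp in liver (14796 against 169 bp). The last segment was higher in 7 of 7 lists of each tissue, with a two-sided exact sign-flip permutation p of 0.0156 per tissue, the smallest that 7 stages allow, and an adjusted p of 0.0156 over the 3 tissues. In forebrain this order rested on the downstream end of the window: in a window narrowed by 50 kb on each side, last minus first was -6725 bp (1678 against 8402 bp, exact permutation adjusted p = 0.0234). The share of covered length that lay in the first segment was 22.9% to 36.5% in forebrain, with a median of 29.2%. In heart it was 0% to 11.1% with a median of 5.55%, and 5 of 7 lists had any. In liver 1 of 7 lists had any, at 6.86%. The forebrain share is above that of every heart and liver list.

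In the first segment forebrain lists covered 3565 bp to 15372 bp with a median of 8212 bp, against a median of 1707 bp in heart and 0 bp in liver. Forebrain exceeded the mean of heart and liver of the same stage by 7540 bp (8402 against 862 bp) and at 7 of 7 stages, with an exact sign-flip permutation p of 0.0156 and an adjusted p of 0.0469 over the 3 segments, two-sided. Without heart P21 the difference was 8203 bp at 6 of 6 stages, and its exact permutation p of 0.0313, the smallest that 6 stages allow, had an adjusted value of 0.0938. In the last segment the difference was -269 bp (19403 against 19672 bp, exact permutation adjusted p = 1). Relative to the base pairs covered by the whole list, forebrain was higher in the last segment as well, by 87.3 bp per Mb (exact permutation adjusted p = 0.0234). In the window narrowed by 50 kb it was lower there, by a mean difference of -1679 bp (1678 against 3356 bp, exact permutation adjusted p = 0.0234), so the direction in the last segment depended on the measure. Without heart P21 the last segment exceeded the first by 26398 bp in heart (exact permutation adjusted p = 0.0313).

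**Figure D3:**
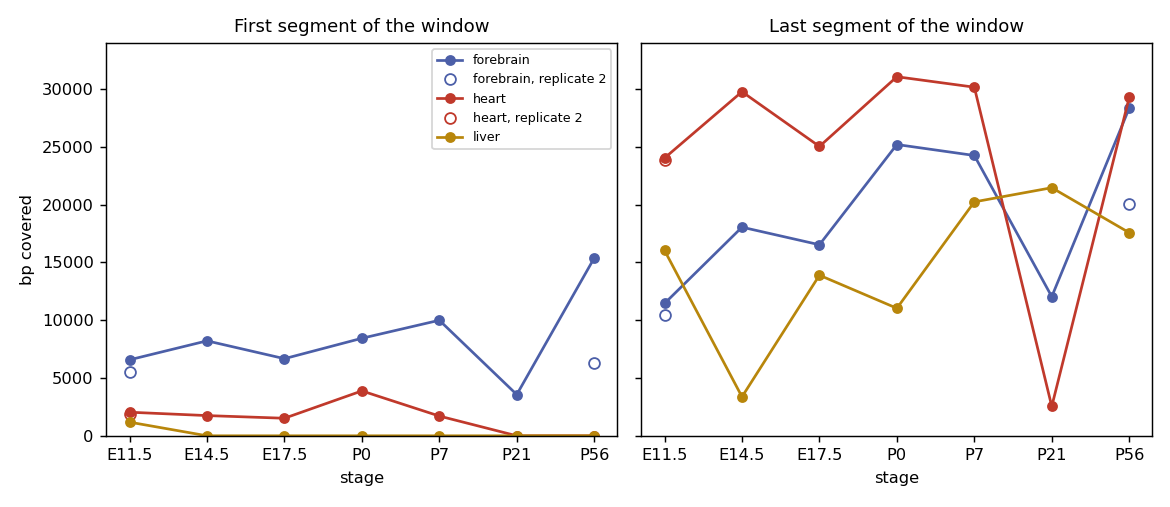
Base pairs covered by peaks in the first (left) and last (right) of 3 equal segments of the window against stage, 1 filled point per tissue and stage, with open circles for the second replicates. In the first segment forebrain, in blue, lies above heart and liver at every stage, while the tissues cross in the last.

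The total amount of marked sequence in the window did not separate forebrain from heart. Forebrain lists covered 15600 bp to 43706 bp of the window with a median of 26255 bp. Heart lists covered 2543 bp to 34937 bp with a median of 29269 bp, and liver lists 3372 bp to 21456 bp with a median of 17210 bp. The ranges overlap between all pairs of tissues. The mean stage-matched difference was 1702 bp for forebrain against heart (27805 against 26103 bp, higher at 3 of 7 stages), with an exact sign-flip permutation p of 0.625. For forebrain against liver it was 12840 bp (27805 against 14965 bp, higher at 6 of 7), with an exact permutation p of 0.0469 and an adjusted p of 0.141. For heart against liver it was 11138 bp (26103 against 14965 bp, higher at 6 of 7), with an exact permutation adjusted p of 0.141. All are two-sided, with Benjamini-Hochberg adjustment over the 3 pairs. With P21 left out for every tissue, forebrain exceeded liver by 15956 bp and heart exceeded liver by 16146 bp, each with an exact permutation adjusted p of 0.0469. With heart P21 alone left out, forebrain minus heart was -190 bp, and neither forebrain minus liver (12840 bp) nor heart minus liver (16146 bp) passed, each with an exact permutation adjusted p of 0.0703.

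List length moved with these values, and the comparison depended on how it was treated. Per Mb of sequence covered by the whole list, the window took 317 to 479 bp in forebrain with a median of 411 bp, 111 to 349 bp in heart with a median of 255 bp, and 68.0 to 261 bp in liver with a median of 159 bp. Forebrain was then above heart and above liver at 7 of 7 stages, by 149.9 and 246.6 bp per Mb, each with an exact permutation adjusted p of 0.0234. When each list was shortened to its 7376 best-ranked peaks, the number in heart P21, the window held a mean of 22135 bp in forebrain, 9785 bp in heart and 2169 bp in liver. Forebrain was then higher than heart at 6 of 7 stages and than liver at 7 of 7, each with an exact permutation adjusted p of 0.0313. Heart P21 is included under both treatments of list length, and no value without it is given for either. With 7376 peaks per list 3 elements passed the forebrain test, at 245, 285 and 883 kb, and the share called over the genome is not given here. The 883-kb element was then marked in 7 forebrain lists, 1 heart list and 0 liver lists. At full length it was marked in 6 of 7 heart and 7 of 7 liver lists, so it is not particular to forebrain. Within the IO name series forebrain minus heart was -8907 bp at E11.5 and 14437 bp at P56, so the sign differed between the 2 stages available. Within the LPAN series heart exceeded liver by a mean of 11482 bp over 5 stages (exact permutation p = 0.25, smallest possible 0.0625), and by 19081 bp without P21 (exact permutation p = 0.125). The part of depth and name series in the tissue differences was not tested.

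**Figure D4:**
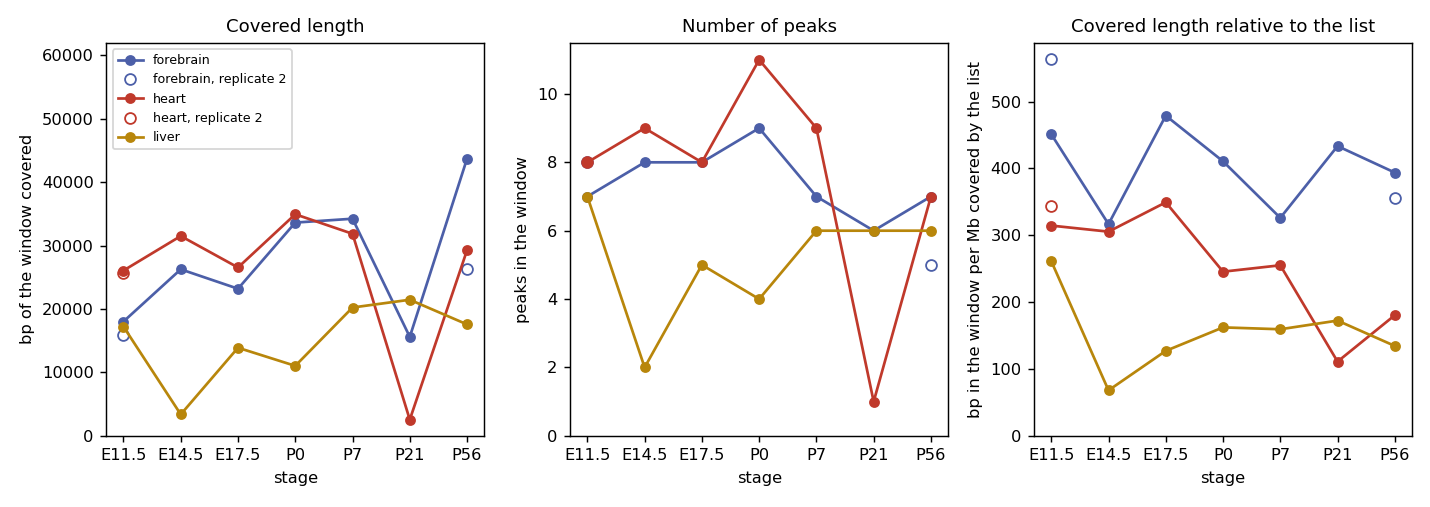
Covered base pairs of the window (left), number of peaks (middle) and covered base pairs per Mb covered by the whole list (right) against stage, with 1 filled point per tissue and stage and open circles for second replicates. Forebrain and heart cross in the first panel, and forebrain lies above heart and liver at every stage in the last.

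By number of peaks, too, liver lists had the lowest mean, and no difference passed with the lists at full length. In the 21 lists the window held 6 to 9 peaks per list in forebrain, 1 to 11 in heart and 2 to 7 in liver, with medians of 7, 8 and 6. The mean stage-matched difference was -0.143 peaks for forebrain against heart, 2.29 for forebrain against liver and 2.43 for heart against liver, with exact permutation adjusted p of 1, 0.188 and 0.305. Without heart P21 they were -1, 2.29 and 3.67, with exact permutation adjusted p of 0.125, 0.0938 and 0.0938. At equal list lengths, with heart P21 included, all 3 passed (exact permutation adjusted p = 0.0313 each) and forebrain exceeded heart by 2.14 peaks. Window peaks had a median width of 3568 bp in forebrain, 3003 bp in heart and 2583 bp in liver, and the widest, of 16714 bp, was in forebrain P56.

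On average, the positions of the peaks followed tissue, least clearly for liver. The base-pair Jaccard index, the shared covered length of a pair of lists divided by their joint covered length, averaged 0.509 for pairs within a tissue and 0.366 for pairs between tissues. The difference of 0.143 had a two-sided exact permutation p of 4.29e-05 over the 279936 ways to exchange tissue labels within stages. Within forebrain the index averaged 0.548, within heart 0.538 and within liver 0.442. Between forebrain and heart it averaged 0.387, between forebrain and liver 0.322 and between heart and liver 0.390. Without heart P21 the heart value was 0.718 and the difference 0.158, with the same exact permutation p. Forebrain with heart then averaged 0.440 and heart with liver 0.438, close to the 0.442 within liver. With every liver list kept, liver lists were thus on average about as like heart lists as they were like each other. Liver E14.5, with 2 window peaks and 3372 bp, lowered both averages. Its index was 0.157 to 0.306 with other liver lists and 0.0965 to 0.129 with heart lists other than P21. Averages without liver E14.5 are not given here, so the near-equality may rest on that list. The part of name series in the index was not tested. The replicate pairs had an index of 0.713 at forebrain E11.5, 0.588 at forebrain P56 and 0.793 at heart E11.5, so the replicates of forebrain P56 differed from each other by more than the average pair of heart stages without P21.

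Over development, no change in the amount of marked sequence passed in any tissue. Forebrain covered 31792 ± 11740 bp after birth (SD, n = 4 stages) and 22489 ± 4162 bp before birth (SD, n = 3 stages). The difference of 9302 bp had an exact permutation p of 0.286 over 35 splits and an adjusted p of 0.429, and 0.0286 is the smallest p that 35 splits allow. In heart the values were 24652 ± 14920 bp after birth and 28037 ± 3014 bp before birth (exact permutation adjusted p = 0.971), and without P21 32021 bp after birth and 28037 bp before. In liver they were 17571 ± 4653 bp after birth and 11490 ± 7224 bp before birth (exact permutation adjusted p = 0.429). The postnatal minus prenatal difference was 12688 bp larger in forebrain than in heart, with an exact permutation p of 0.0571 and an adjusted p of 0.171. With heart P21 left out it was 5318 bp, and with P21 left out of both tissues 10716 bp (exact permutation p = 0.1, the smallest that 20 splits allow).

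The stages with replicates show the size of the error. At forebrain P56 the window had 43706 and 26382 covered bp in the 2 replicates (35044 ± 12250 bp, SD, n = 2), and at forebrain E11.5 it had 18020 and 15964 bp (16992 ± 1454 bp, SD, n = 2). Both P56 lists are above both E11.5 lists, with an exact permutation p of 0.333, the smallest that 2 lists against 2 allow. Per Mb covered by the whole list the order turned, with P56 lower by a mean difference of -132 bp per Mb. The P56 replicates also differed in name series, IO for the first and LPAN for the second. At heart E11.5 the replicates covered 26063 and 25734 bp (25899 ± 233 bp, SD, n = 2).

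Whether neighbouring forebrain stages were more alike than distant ones depended on the setting. The index averaged 0.585 for adjacent stages and 0.533 for other pairs, a difference of 0.0526 with a one-sided exact permutation p of 0.180 over 5040 orders. At equal list lengths the difference was 0.105 (exact permutation p = 0.0179) and 0.134 once each peak was cut to its central 1 kb (exact permutation p = 0.00516). With 1 stage left out it was 0.173 without P21 (exact permutation p = 0.00556), 0.0911 without P56 (exact permutation p = 0.0417) and -0.00715 without P0 (exact permutation p = 0.519), and it did not pass without E11.5, E14.5, E17.5 or P7. The forebrain P21 list was the shortest of the 7 replicate-1 forebrain lists, with 15246 peaks, and lacked peaks at 712 kb and in the 883-kb block.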

How the data were processed

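H3K27ac and input libraries of forebrain, heart and liver were analysed from the authors' deposited peak lists, called per library. Chromatin was cross-linked, sonicated and immunoprecipitated with an H3K27ac antibody, per the labels' protocols. Per the submitters' processing notes, BWA, MACS 1.4 and build mm9 were used, with roles and parameters not given in the sources used here. A deposited list holds positions and a rank by the authors for each peak, without a score, so presence, covered length and rank within a list were used. Read counts and peak counts per library came from the authors' deposited summary table, where P0 is written P1 and P21 is written P20, as in the list headers. The stage names of the labels are used here.

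Overlapping peaks of the 24 H3K27ac lists (1 bp or more) were joined, which gave 86181 elements. The main comparisons used replicate 1 where a group had 2. Tests were exact sign-flip permutations over 7 stages, exact permutations of labels or stage orders, and Fisher's exact test per element over all elements of the genome with a peak in the tissue tested, with Benjamini-Hochberg adjustment and calls at 0.05. All elements of the window are named. The window, the lists and the tests were chosen with earlier results of these data known. Alternatives tried were equal list lengths, values relative to list coverage, trimmed peaks, shifted window edges, other replicates, and removal of peaks overlapping input peaks. The tests for heart and liver, the blocks, the comparison within name series and the flanks came after the data had been seen. The plan for this work held that a stage-stratified test per element could not pass adjustment. It passed for 1 element of the window over elements with a forebrain peak, and for none over all 85254 elements. In simulated data with 200 elements planted at all forebrain stages among 85254 elements, the Fisher test recovered 100% with 3 other calls, and with none planted it made 0 calls. Elements so planted take the smallest p that the test allows. Their recovery therefore does not show how well elements marked at some stages only would be found. No mm9 annotation was used, so the planned lists of protocadherin regulators were not analysed here. Sequences of the locus are not reported here. Coordinates are 1-based. The tools were scipy 1.17.1, pandas 2.3.3 and numpy 2.4.6 under Python 3.11.15, with matplotlib 3.10.9 for figures.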

Additional observations from a re-analysis of the deposited data

Results flagged for a closer look

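One of the 24 input lists held peaks in the protocadherin window. The list labelled heart P21 input had 4 peaks there, while the other 23 input lists had 0. They lay at 37802796 to 37804682 in the 712-kb element, at 37981852 to 37987976 in the 891-kb block, at 37994428 to 37996026 in the 903-kb block and at 38007482 to 38013305 in the 916-kb block. H3K27ac lists of all 3 tissues marked these positions, each in 5 to 7 of 7 forebrain lists, 6 or 7 of 7 heart lists and 5 to 7 of 7 liver lists. The best ranked of the 4, at rank 3351 of 23762, was the 712-kb one, which was also the best-ranked window peak in 3 of 8 heart lists and 7 of 7 liver lists. None of the 4 lay in the first segment of the window. Why this list holds them was not tested.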

How the results depend on the processing

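Of 369 values recomputed for 19 results, 311 kept direction and side of the threshold, among them all 20 of last minus first segment in heart and all 20 in liver. Another 20 of the 311 came from the middle segment, which was at 0 bp in every list, and could not change. In order forebrain-heart, forebrain-liver, heart-liver, covered length at equal list lengths differed by 12350, 19965 and 7615 bp, and peaks by 2.14, 3.86 and 1.71, all passing with heart P21 included. Relative to the list, forebrain exceeded heart and liver by 149.9 and 246.6 bp per Mb and by 0.695 (not passing) and 1.02 peaks per 10000 listed. In a window narrowed by 50 kb these were 4535 and 7187 bp and 0.571 (not passing) and 2.14 peaks. Forebrain minus heart was -440 bp with peaks trimmed to 1 kb and -190 bp without heart P21. Without peaks overlapping any input peak, which removed 86 of 162, the 3 differences were 4049, 10311 and 6262 bp and passed. With the heart P21 input list kept out of that filter, 0 peaks were removed, so all 86 were removed through that list. None of its 4 window peaks lay in the first segment. The filter thus could remove no peak of the first segment, where forebrain was highest, and results under it depend on that. Postnatal minus prenatal turned in liver at equal lengths (-502 bp), in forebrain relative to the list (-24.7 bp per Mb) and trimmed (-101 bp), and in heart without P21 (3984 bp). Last minus first segment in forebrain was 1466 bp trimmed and no longer passed, -6725 bp in the narrowed window, passing, and -2819 bp without input-overlapping peaks, not passing. Forebrain against the others in the last segment was 9799 bp at equal lengths, 87.3 bp per Mb relative to the list, -1679 bp in the narrowed window, all passing, and 1733 bp in the widened one, not passing. In the first segment it was 8203 bp without heart P21 and no longer passed, with fewer stages. The stage-order difference passed at equal lengths (0.105), trimmed (0.134) and without input-overlapping peaks (0.105). Forebrain P56 minus E11.5 was -132 bp per Mb relative to the list and -890 bp trimmed. Forebrain-restricted elements, meaning those that passed the forebrain test, were 3 at equal lengths and 2 at 50% cover. Genome shares in these settings are not given here. Apart from fewer stages, the cause of these shifts was not tested.

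With 1 stage or replicate left out, covered length ranged from -773 to 3327, 10365 to 15956 and 8305 to 16146 bp, and peaks from -1 to 0.167, 1.67 to 2.67 and 1.67 to 3.67. Postnatal minus prenatal ranged from 4971 to 14700 bp in forebrain, -6814 to 3984 bp in heart and 2022 to 8941 bp in liver. Last minus first segment ranged from 10041 to 12021, 21944 to 26398 and 13490 to 16504 bp by tissue. Forebrain against the others ranged from 6235 to 8203 bp in the first segment and -1449 to 1116 bp in the last. The stage-order difference ranged from -0.00715 to 0.173, tissue separation from 0.128 to 0.178, P56 minus E11.5 from 9390 to 26714 bp, and restricted elements from 1 to 1.

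With replicate number as a block, forebrain P56 minus E11.5 stayed at 18052 bp with an exact permutation p of 0.5. Deviations of same-numbered lists had a correlation of -1.38e-05 over 86181 elements. With 2 lists per group this cannot settle whether the numbers pair the lists. Scaling to list coverage could not be applied to the Jaccard results or to single elements. Unequal depth and list length, and 1 library in most groups, limit what a missing peak can show.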
